A study of Homo sapiens with 9 samples.

Results

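Orphan and adhesion G protein-coupled receptors were followed in OVCAR3 cells, an established line of human epithelial ovarian carcinoma. The genes were chosen by symbol alone: protein-coding genes named GPR with a digit, GPRC5A to GPRC5D, or ADGR with a letter and a digit. The rule gave 110 genes of the 60660 identifiers in the count matrix, of which 28 are adhesion receptors, 4 are GPRC5 receptors and 78 carry a GPR number. The product of GPR15LG, which the symbol rule includes, is a secreted ligand of the receptor GPR15 and not a receptor. Of the 110 genes, 92 had a count in at least 1 of 9 libraries, 18 had none, and 26 had between 1 and 20 counts in total.

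The 9 libraries fell into 3 groups of 3, and each library was a biological replicate pooled from technical replicates. Control cells carry no CTCFL treatment by their labels and received a LacZ plasmid by the study's methods. CTCFL-OE cells were transiently transfected with 2 µg of a plasmid that carries the open reading frame of CTCFL (also called BORIS) and were collected after 48 h. CTCFL-KD cells were treated with siRNA against CTCFL in an earlier published experiment. CTCFL-KD was therefore compared with a plasmid control, and the effects of CTCFL loss, siRNA delivery and the separate experiment cannot be told apart. CTCFL had 6, 9 and 10 counts in Control, 36, 34 and 72 under CTCFL-OE and 0, 1 and 0 under CTCFL-KD, which follows the labels. Both the CTCFL-OE and the CTCFL-KD group were compared with the same 3 Control libraries.

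G protein-coupled receptors cross the membrane with a bundle of helices and, when activated, exchange the nucleotide on a heterotrimeric G protein inside the cell. Adhesion receptors add a long extracellular part that is cleaved next to the membrane at the GAIN domain, so that matrix proteins or neighbouring cells can pull it away and expose a tethered agonist. Many receptors with a GPR number are still orphans, which means that no ligand is generally accepted, and several of them work on internal membranes or on the primary cilium. CTCFL is a testis-restricted paralog of the chromatin architectural protein CTCF, shares its zinc finger DNA-binding domain, and is re-expressed in ovarian tumours.

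The libraries held between 14332622 and 24490080 counted reads, and between 70 and 78 of the 110 genes were detected in each. Mitochondrial genes took 6.16% to 6.52% of reads in Control, 7.40% to 14.9% under CTCFL-OE and 7.80% to 11.8% under CTCFL-KD. CTCFL-KD replicate 1 stood apart from the other two of its group, with the lowest scaling factor (0.7747) and, on the log2 scale, with the shortest genes at 0.78 and the longest at −0.607 relative to its group. All 11 epithelial ovarian carcinoma markers lay above 1 CPM (read count scaled to the library size) in every group, and their sum was 5500 to 5610 CPM in Control, 5090 to 5240 CPM under CTCFL-OE and 9850 to 16300 CPM under CTCFL-KD. The list did not move as one. From Control to CTCFL-KD the means of KRT7 (1450 to 670 CPM) and WT1 (72.8 to 47.0 CPM) fell, and those of the other markers rose. RNA came from whole cultures, in which fewer cells of a type and less RNA per cell cannot be told apart.

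Promoter sequence is shown for 5 of the receptors described next, as 250 bases before the annotated start, 5′ to 3′ on the strand of the gene, from RefSeq on GRCh38.p14. The first window is that of GPR141, which was nearly lost in both treated groups. Next come GPR26, GPR83 and GPR143, which rose most in CTCFL-KD against Control among the named receptors with a window, which GPR37 lacks. The last is GPR63, the only gene called in CTCFL-KD whose window held a match to the core of the CTCF and CTCFL motif. Capitals mark that match. The core was searched on both strands, and overlapping matches were each counted. The basic spelling was AGGTGGC, with a thymine in the middle. The spelling with a guanine there was AGGGGGC. With an adenine before that position, the spellings searched were AGATGGC for the thymine form, and for the guanine form the spelling was AGAGGGC.
GPR141 (chr7:37683516-37683765, plus strand): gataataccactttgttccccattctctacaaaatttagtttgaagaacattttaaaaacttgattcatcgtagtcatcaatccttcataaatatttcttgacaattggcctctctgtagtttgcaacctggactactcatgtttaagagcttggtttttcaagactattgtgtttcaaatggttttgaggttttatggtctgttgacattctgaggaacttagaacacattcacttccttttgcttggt
GPR26 (chr10:123666105-123666354, plus strand): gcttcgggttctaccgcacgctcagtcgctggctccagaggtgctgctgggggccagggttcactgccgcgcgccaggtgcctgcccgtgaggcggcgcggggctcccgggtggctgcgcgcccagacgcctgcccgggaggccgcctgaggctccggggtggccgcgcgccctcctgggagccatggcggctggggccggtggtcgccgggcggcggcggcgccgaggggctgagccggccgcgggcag
GPR83 (chr11:94401420-94401669, minus strand): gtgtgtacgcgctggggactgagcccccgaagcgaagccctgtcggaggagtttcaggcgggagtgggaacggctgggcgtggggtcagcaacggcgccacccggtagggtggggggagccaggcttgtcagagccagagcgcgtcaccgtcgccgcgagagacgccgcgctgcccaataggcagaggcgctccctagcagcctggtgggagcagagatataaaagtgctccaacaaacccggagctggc
GPR143 (chrX:9765848-9766097, minus strand): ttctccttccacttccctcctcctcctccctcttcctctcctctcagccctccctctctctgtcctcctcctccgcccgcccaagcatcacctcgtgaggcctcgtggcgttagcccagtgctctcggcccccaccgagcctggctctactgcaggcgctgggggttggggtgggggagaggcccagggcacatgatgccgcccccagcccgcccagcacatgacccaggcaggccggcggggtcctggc
GPR63 (chr6:96837478-96837727, minus strand): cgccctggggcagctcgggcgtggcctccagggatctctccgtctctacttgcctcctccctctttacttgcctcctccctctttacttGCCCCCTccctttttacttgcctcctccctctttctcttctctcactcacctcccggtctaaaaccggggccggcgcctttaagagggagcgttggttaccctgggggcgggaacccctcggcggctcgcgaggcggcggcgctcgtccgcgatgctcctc

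The table of promoters held 79 of the 110 genes and none for 11 of the 27 called ones, GPRC5A, GPR37 and GPR155 among them. A core match stood in 26.4% of all 35116 promoter windows, in 21.5% of the 79 receptor windows and in 1 of the 14 windows of genes called in CTCFL-KD, which is 7.14%. GPR141 has a window of low GC content, with 34.4% GC and 1 CpG, against medians of 58.0% and 11 CpG over all windows. The windows of GPR26, GPR83, GPR143 and GPR63 held between 12 and 33 CpG and between 64.8% and 80.0% GC. The GPR143 window begins at a RefSeq start inside the longer gene model of GENCODE 44, which runs from 9725346 to 9786297.

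In Control, 44 of the 110 genes were at 1 CPM or more in all 3 libraries and 25 were at 10 CPM or more. Levels were compared between genes as CPM per kilobase of exon. ADGRG1 (GPR56), an adhesion receptor that binds collagen III and transglutaminase 2, was the highest, at 103 ± 1.51 CPM per kilobase in Control (SD, n = 3), 95.1 ± 27.9 under CTCFL-OE and 97.9 ± 7.21 under CTCFL-KD. Its libraries overlapped between all 3 groups, and its log2 fold changes from Control were −0.12 under CTCFL-OE and −0.07 under CTCFL-KD, each with an adjusted p of 0.823 in edgeR's quasi-likelihood test.

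GPRC5A, a class C receptor induced by retinoic acid, came next in Control at 54.0 ± 1.27 CPM per kilobase, ahead of the Golgi protein GPR107 at 18.5 ± 0.914, the latrophilin ADGRL2 at 14.4 ± 0.633 and GPR108, a Golgi relative of GPR107, at 11.5 ± 0.377. ADGRE5 (CD97), the receptor of CD55, followed at 10 ± 0.281, then GPRC5C at 8.60 ± 0.280 and GPR157, a receptor of the primary cilium, at 7.90 ± 0.314. In Control, neighbours in this order lay further apart than their SDs. The order changed in CTCFL-KD, where GPRC5A stood at 11.7 ± 3.16 CPM per kilobase and GPR107 and GPR157, at 36.8 ± 5.94 and 27.8 ± 2.95, came directly after ADGRG1.

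**Figure D1:**
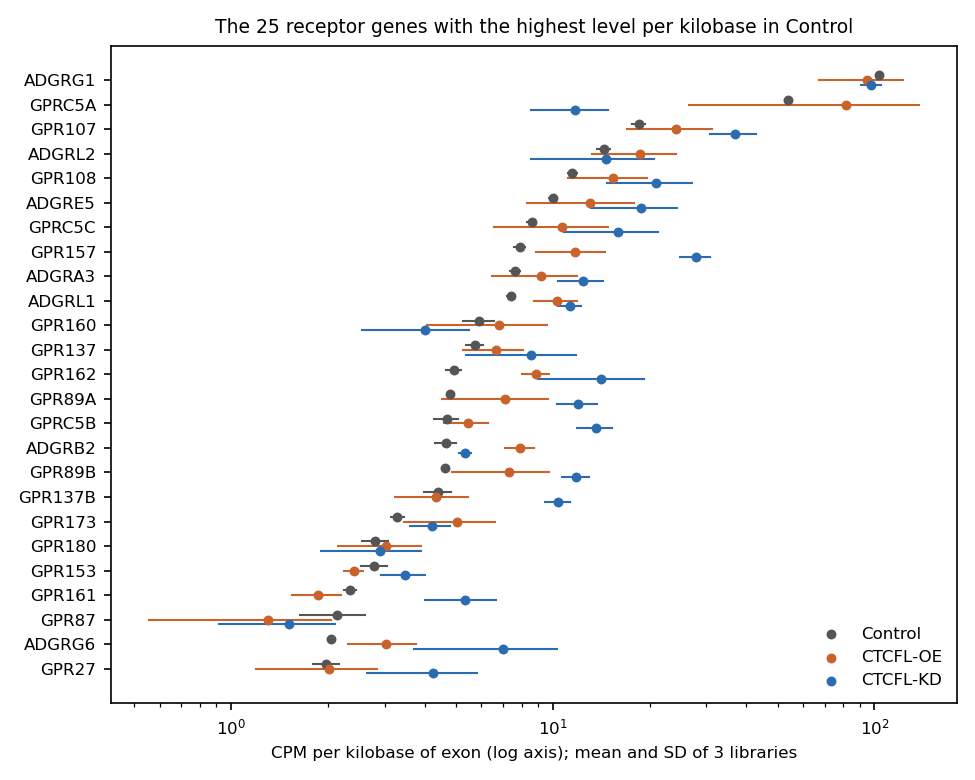
Level of the 25 receptor genes that were highest in Control, in CPM per kilobase of exon on a log axis; points are means and bars SDs of 3 libraries in each group. ADGRG1 has the highest mean in all 3 groups, within 1 SD of GPRC5A in CTCFL-OE, and GPRC5A moves from 54.0 in Control to 11.7 in CTCFL-KD.

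The test was edgeR's quasi-likelihood test on all genes with enough counts, with p-values adjusted over all 17794 genes tested by the Benjamini-Hochberg method. A gene was called when its log2 fold change was beyond 1 in either direction and its adjusted p was under 0.1 for CTCFL-OE against Control or under 0.05 for the comparisons with CTCFL-KD. Of the receptor genes, 57 passed the count filter and 53 did not. GPR141 passed it in Control libraries alone, and GPR26 and GPR83 passed it in CTCFL-KD libraries alone. Having entered through the group where they are high, these 3 genes are described by their reads, with no adjusted p as support. The total of called receptors in each comparison is given with and without them. Counts of subsets and under other settings do not set them apart.

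In CTCFL-OE, 2 of the 57 tested receptor genes fell and none rose by edgeR, although 11 were higher at an unadjusted p under 0.05. DESeq2 called GPR143 higher and ADGRF4 and ADGRL3 lower in CTCFL-OE, and not GPR141. The share of 3.51% (1 of 54, or 1.85%, without GPR141, GPR26 and GPR83) stands beside 2.07% of all tested genes called, of which 1.37% were higher and 0.702% lower in CTCFL-OE. The median log2 fold change was 0.24 over the tested receptor genes and −0.01 over all tested genes.

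GPR141, an orphan class A receptor, was nearly without reads in both treated groups. The gene (ENSG00000187037.8) lies on the plus strand of chromosome 7 from 37683766 to 37833788. It had 20, 26 and 21 counts in Control, 1, 0 and 1 under CTCFL-OE and 1, 1 and 0 under CTCFL-KD. In CPM these were 1.0, 1.01 and 1.06 in Control, 0.0456, 0 and 0.0615 under CTCFL-OE and 0.0902, 0.0595 and 0 under CTCFL-KD. Every library of both treated groups held 0 or 1 read, far below every Control library.

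By the ratio of summed counts, GPR141 was 29.3-fold higher in Control than in CTCFL-OE, with an exact 95% interval of 7.81 to 247 that covers counting error only. Against CTCFL-KD, the ratio was 23.6, with an interval of 6.29 to 199. Both comparisons share the Control libraries, and with 2 reads in each treated group CTCFL-OE and CTCFL-KD cannot be ranked. DESeq2, run without the count filter, called GPR141 in CTCFL-KD but not in CTCFL-OE, where it set no adjusted p at these low counts. The promoter of GPR141 printed above ends at the base before this gene start and held no core match.

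Several receptors of these families, such as ADGRE2 and GPR132, are best known from blood cells, so leukocyte markers were read beside GPR141. None of the 12 markers reached 1 CPM in Control, where CD3E, CD68 and MS4A1 were at 0 in all libraries. PTPRC, the pan-leukocyte marker CD45, was at 0.170 ± 0.178 CPM in Control (SD, n = 3), 0.188 ± 0.157 under CTCFL-OE and 0.305 ± 0.129 under CTCFL-KD. The summed level of the list was 1.30 to 1.90 CPM in Control, 1.37 to 3.13 under CTCFL-OE and 3.07 to 4.78 under CTCFL-KD. CSF1R, a myeloid marker of the list, was at 0.601, 0.816 and 0.557 CPM in Control, 0.319, 0.836 and 1.04 under CTCFL-OE and 0 in all CTCFL-KD libraries, and the myeloid marker CD14 was at 0.126 ± 0.0651 CPM in Control (SD, n = 3) and 1.91 ± 0.998 in CTCFL-KD. Their part in the GPR141 values was not tested.

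ADGRF4 (GPR115), an adhesion receptor of epithelial cells, was the other gene that fell in CTCFL-OE. It was at 2.95, 3.19 and 3.55 CPM in Control, 1.28, 1.25 and 1.54 under CTCFL-OE and 3.34, 2.85 and 2.03 under CTCFL-KD. The CTCFL-OE libraries lay below all others, while Control and CTCFL-KD overlapped. This gave a log2 fold change of −1.25 in CTCFL-OE (SE 0.25, adjusted p = 0.0439) and −0.25 in CTCFL-KD (SE 0.24, adjusted p = 0.429). Against CTCFL-OE, CTCFL-KD was higher by 1.0 (SE 0.26, adjusted p = 0.0153).

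These ADGRF4 calls were fragile. In CTCFL-OE the adjusted p rose to 0.199 without CTCFL-OE replicate 2, 0.113 without CTCFL-OE replicate 3, and 0.181, 0.188 and 0.242 without Control replicates 1, 2 and 3, with log2 fold changes between −1.35 and −1.19. The CTCFL-KD against CTCFL-OE call stood at the fold threshold and was kept under 3 of 20 other settings, those without any 1 library giving log2 fold changes between 0.85 and 1.19 and adjusted p values between 0.0109 and 0.0598.

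ADGRL3 (latrophilin 3), which binds teneurins and FLRT proteins across cell contacts, was at 11.1, 13.6 and 15.2 CPM in Control, 2.55, 5.12 and 8.36 under CTCFL-OE and 10.9, 23.8 and 26.0 under CTCFL-KD. All CTCFL-OE libraries lay below all others, but they spread widely. Against Control, ADGRL3 had a log2 fold change of −1.33 in CTCFL-OE (SE 0.41, adjusted p = 0.139) and 0.61 in CTCFL-KD (SE 0.39, adjusted p = 0.237), and neither was called by edgeR. DESeq2 called it lower in CTCFL-OE (log2 fold change −1.33, SE 0.42, adjusted p = 0.0366). The direct comparison of CTCFL-KD with CTCFL-OE gave 1.94 (SE 0.41, adjusted p = 0.00599), and it was called without any 1 library.

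ADGRB2, a brain-enriched adhesion receptor, was higher in every CTCFL-OE library (54.7, 62.6 and 67.1 CPM) than in every Control library (37.7, 33.1 and 37.6 CPM). Its log2 fold change of 0.77 (SE 0.16, adjusted p = 0.0469) passed the p threshold but not the fold threshold, and ADGRB2, named after its values were seen, was the only uncalled receptor gene of this kind in CTCFL-OE. GPR143 had the highest uncalled log2 fold change in CTCFL-OE, 1.06 (SE 0.29, adjusted p = 0.112).

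**Figure D2:**
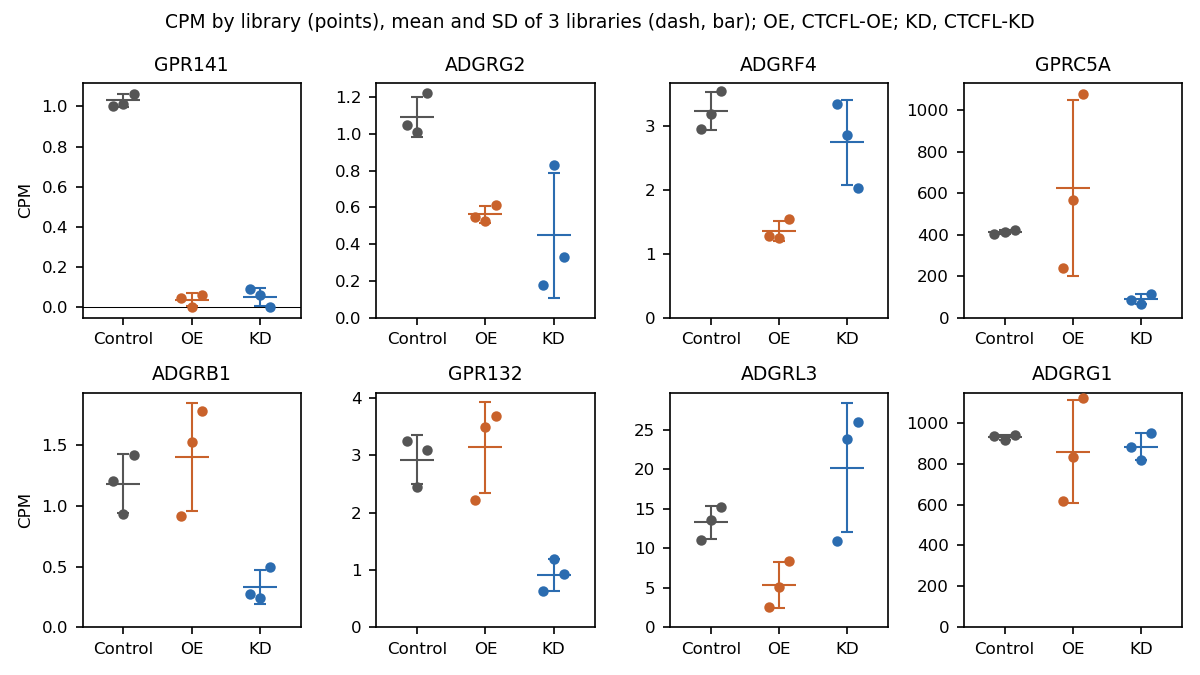
CPM of 8 receptor genes in each library; points are libraries, dashes means and bars SDs of 3 libraries for Control, CTCFL-OE (OE) and CTCFL-KD (KD), on linear axes of their own. GPR141 is at or below 0.0902 CPM in all treated libraries, and ADGRG1 overlaps between the groups.

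In CTCFL-KD, 24 of the 57 tested receptor genes were called, 17 higher and 7 lower. Without GPR141, GPR26 and GPR83 these were 21 of 54, with 15 higher and 6 lower, or 38.9%. The share of 42.1% stands beside 23.2% of all tested genes, of which 15.3% were higher and 7.94% lower, and beside 23.8% of the 13697 tested protein-coding genes. The median log2 fold change was 0.61 over the tested receptor genes and 0.08 over all tested genes.

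Of the 17 tested adhesion receptors, 2 rose and 4 fell in CTCFL-KD, with a median log2 fold change of 0.20. Of the 40 tested genes with GPR or GPRC5 symbols, 15 rose and 3 fell, with a median of 0.72. The 40 include GPR26 and GPR83, which rose, and GPR141, which fell, all passing the count filter only through the group where they are high. Beside these counts, 15.3% of all tested genes were higher and 7.94% lower in CTCFL-KD. This contrast between the families is a description, and the difference was not tested.

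**Figure D3:**
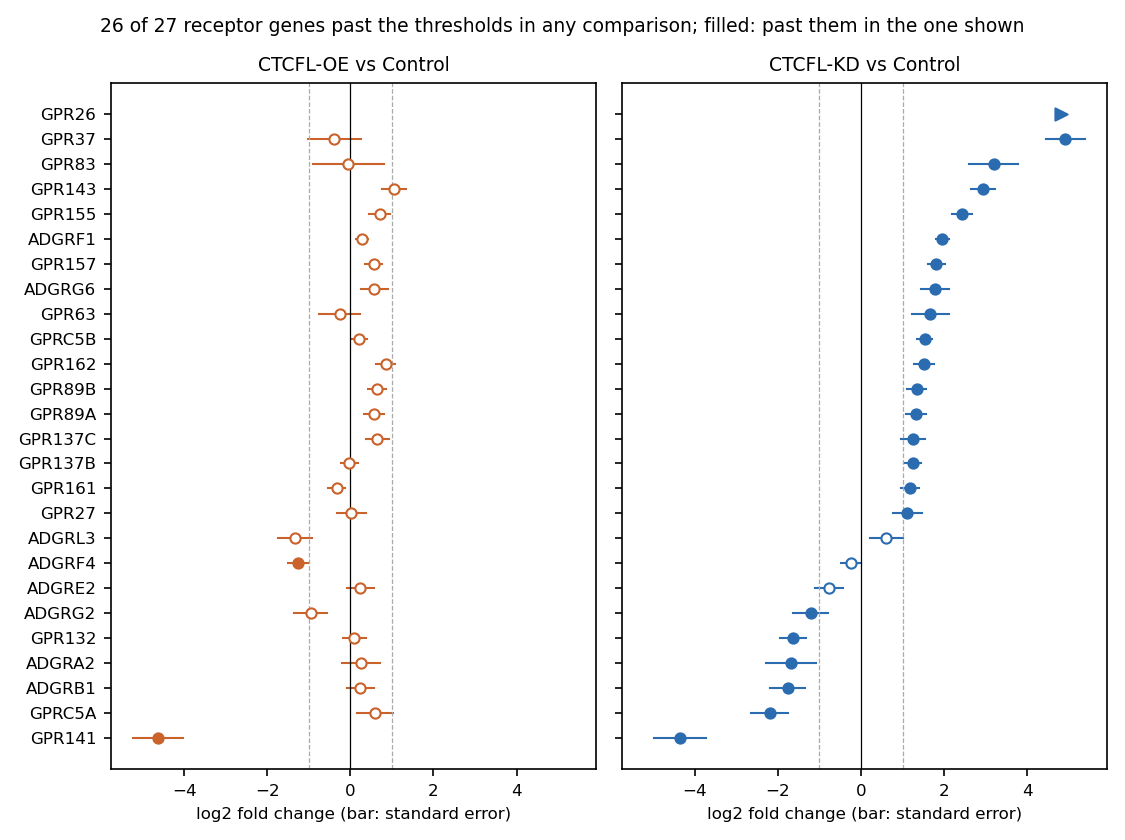
Log2 fold change against Control of 26 of the 27 receptor genes called in any of the 3 comparisons, in CTCFL-OE (left) and CTCFL-KD (right), with bars of 1 standard error; filled points were called in the comparison shown, and dashed lines mark −1 and 1. The triangle for GPR26 is its lower bound of 27.9-fold, and GPR26 has no point in CTCFL-OE, where both groups were at 0. The points for GPR141 and GPR83 are fitted values that rest on few reads in the low groups. Both panels share the same Control libraries.

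GPRC5A was at 403, 415 and 422 CPM in Control, 238, 565 and 1080 under CTCFL-OE and 85.9, 67.7 and 116 under CTCFL-KD. Every CTCFL-KD library lay below every other library, while the CTCFL-OE libraries lay on both sides of Control. It fell by 2.20 on the log2 scale in CTCFL-KD (SE 0.44, adjusted p = 0.0031) and differed by 0.60 in CTCFL-OE (SE 0.43, adjusted p = 0.482). The spread in CTCFL-OE was wide, with a mean of 627 ± 424 CPM (SD, n = 3).

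ADGRB1 and GPR132, which also fell in CTCFL-KD, were low in Control. ADGRB1 (BAI1), which recognises phosphatidylserine on dying cells, was at 1.20, 0.933 and 1.42 CPM in Control and 0.271, 0.238 and 0.493 under CTCFL-KD, giving a log2 fold change of −1.76 (SE 0.42, adjusted p = 0.00737). In CTCFL-OE it was at 0.912, 1.52 and 1.78 CPM, which overlaps Control. GPR132, a class A receptor of lactate and oxidised lipids, was at 3.26, 2.45 and 3.09 CPM in Control, 2.23, 3.50 and 3.69 under CTCFL-OE and 0.631, 1.19 and 0.931 under CTCFL-KD. Its log2 fold change was −1.63 in CTCFL-KD (SE 0.31, adjusted p = 0.00218) and 0.10 in CTCFL-OE (SE 0.27, adjusted p = 0.877). ADGRB1 and GPR132 were thus lower in CTCFL-KD than in either other group, by −1.99 and −1.73 against CTCFL-OE (adjusted p = 0.0053 and 0.00228).

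ADGRA2 (GPR124), a WNT7 co-receptor of brain vessels, and ADGRG2 (GPR64), an epididymal receptor, were called with adjusted p values close to the threshold. ADGRA2 was at 0.601, 0.389 and 0.304 CPM in Control and 0.0902, 0.0595 and 0.219 in CTCFL-KD (log2 fold change −1.68, SE 0.60, adjusted p = 0.0478). ADGRG2 was at 1.05, 1.01 and 1.22 CPM in Control, 0.547, 0.523 and 0.615 under CTCFL-OE and 0.180, 0.832 and 0.329 under CTCFL-KD (log2 fold change −1.21, SE 0.42, adjusted p = 0.0436 in CTCFL-KD). Control did not overlap with CTCFL-KD for either gene.

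With the replicate number as a block, the adjusted p in CTCFL-KD was 0.0664 for ADGRA2 and 0.0543 for ADGRG2, and neither was called. DESeq2 called neither (adjusted p = 0.0952 and 0.0623). The ADGRA2 call was also lost without CTCFL-KD replicate 1 (0.0799), CTCFL-KD replicate 2 (0.156), CTCFL-OE replicate 2 (0.0663), Control replicate 2 (0.0864) or Control replicate 3 (0.0597), the numbers being adjusted p values, and the gene failed the count filter without Control replicate 1. The ADGRG2 call held only without CTCFL-KD replicate 2 (adjusted p = 0.0065) and was lost without any other library, with adjusted p values between 0.0531 and 0.138. ADGRA2 shares 23.0% of its exon length with BRF2 on the opposite strand, and the strand setting of the counting is not given.

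Among the receptors that rose in CTCFL-KD was GPR37, the endothelin B receptor-like substrate of the ubiquitin ligase parkin, for which prosaposin has been proposed as a ligand. GPR37 was at 0.301, 0.233 and 0.608 CPM in Control, 0.182, 0.261 and 0.430 under CTCFL-OE and 5.59, 14 and 14.6 under CTCFL-KD. Its counts went from 6, 6 and 12 in Control to 62, 235 and 266 in CTCFL-KD, and every CTCFL-KD library lay above every other library. This gave a log2 fold change of 4.92 against Control (SE 0.47, adjusted p = 3.37e-05) and 5.31 against CTCFL-OE (SE 0.50, adjusted p = 4.65e-05). A same-strand GENCODE entry covers 21.4% of its exon length, so its level is uncertain to that extent.

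GPR26, a brain orphan receptor with high basal activity, had no read in any Control or CTCFL-OE library and 8, 24 and 27 reads in CTCFL-KD. This was 0.722, 1.43 and 1.48 CPM. With 3 counts over the group as the upper limit for the groups at 0, GPR26 was at least 27.9-fold higher in CTCFL-KD than in Control and at least 24.4-fold higher than in CTCFL-OE, with counting error alone behind these bounds.

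GPR83, a receptor of the proSAAS-derived peptide PEN, had 3, 1 and 3 reads in Control, 4, 1 and 1 under CTCFL-OE and 16, 21 and 10 under CTCFL-KD. The ratio of summed counts was 9.52 in CTCFL-KD against Control, with an exact 95% interval of 4.28 to 25. GPR101, another brain orphan, did not pass the count filter but had no read in Control or CTCFL-OE and 0.180, 0.297 and 0.219 CPM in CTCFL-KD, at least 5.2-fold higher than in Control. GPR101 was chosen for mention after its values were seen.

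GPR143 (OA1), the receptor of pigment organelles whose loss causes ocular albinism, was at 1.35, 1.20 and 1.52 CPM in Control, 2.42, 2.61 and 3.50 under CTCFL-OE and 14.6, 8.44 and 8.27 under CTCFL-KD. The 3 groups did not overlap, with CTCFL-OE between the others. This gave a log2 fold change of 2.93 in CTCFL-KD (SE 0.29, adjusted p = 4.16e-05), and CTCFL-KD was higher than CTCFL-OE by 1.87 (SE 0.27, adjusted p = 0.000679). GPR155 (LYCHOS), a lysosomal cholesterol sensor, had the same order, at 2.45, 1.98 and 2.33 CPM in Control, 3.65, 3.87 and 3.56 under CTCFL-OE and 8.93, 11.5 and 16.1 under CTCFL-KD. Its log2 fold change was 2.44 in CTCFL-KD (SE 0.24, adjusted p = 4.46e-05) and 0.71 in CTCFL-OE (SE 0.25, adjusted p = 0.173).

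**Figure D4:**
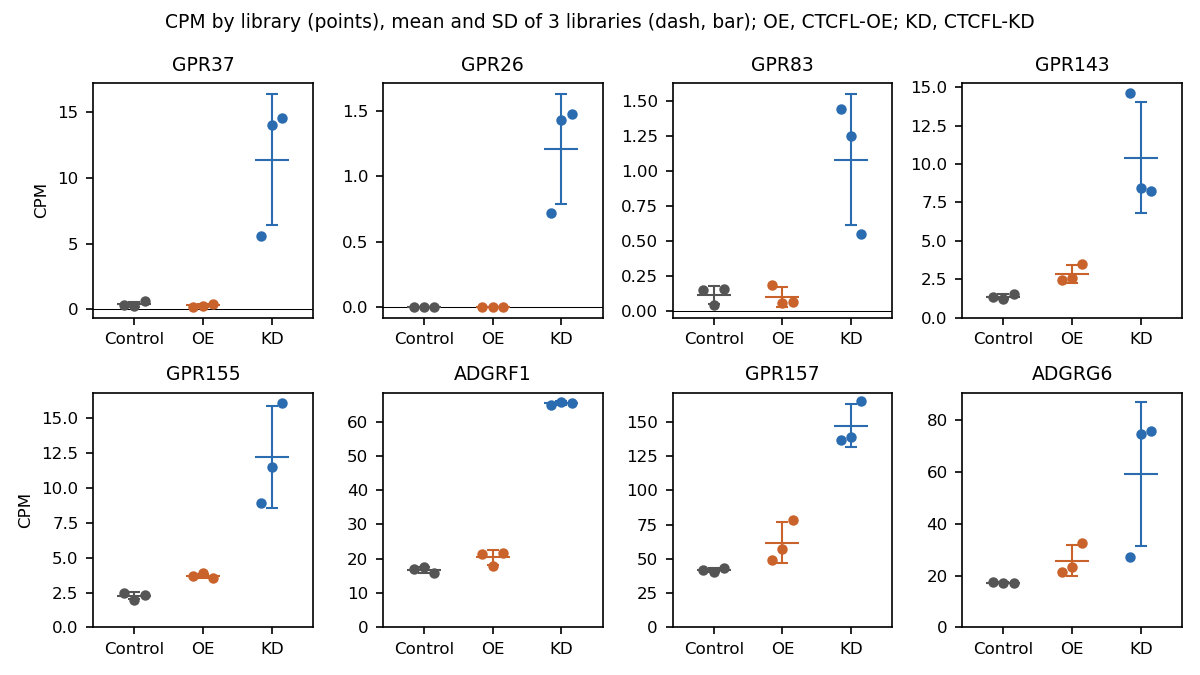
CPM of 8 receptor genes that rose in CTCFL-KD, in each library; points are libraries, dashes means and bars SDs of 3 libraries, on linear axes of their own. GPR26 is at 0 in Control and CTCFL-OE, and ADGRF1 lies between 64.8 and 65.8 CPM in CTCFL-KD.

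GPR143 and GPR155 belong to a chosen list of 11 receptors of internal membranes or the cilium, all of which were tested. The list leaves out GPR157, with which 8 of 12 rose in CTCFL-KD. In CTCFL-KD, 7 of the 11 rose by edgeR, with a median log2 fold change of 1.24, where 15.3% of all tested genes rose. None fell by edgeR or DESeq2, or at an unadjusted p under 0.05. Against CTCFL-OE, 4 of the 11 were higher in CTCFL-KD, beside 10.6% of all tested genes, with a median of 0.69.

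The lysosomal mTORC1 regulator GPR137B was at 11.2, 9.21 and 10.1 CPM in Control, 9.08, 8.05 and 12.9 under CTCFL-OE and 21.8, 24 and 26.2 under CTCFL-KD. CTCFL-KD lay above both other groups, by 1.24 against Control (SE 0.20, adjusted p = 0.000927) and 1.27 against CTCFL-OE (SE 0.20, adjusted p = 0.00121). GPR137C, its paralog, rose by 1.25 in CTCFL-KD (SE 0.28, adjusted p = 0.00566), from 3.54 ± 0.290 to 8.36 ± 2.13 CPM. GPR161, the ciliary receptor that restrains Hedgehog signalling, went from 26.8 ± 1.11 CPM in Control to 60.9 ± 15.2 in CTCFL-KD (log2 fold change 1.18, adjusted p = 0.00174), and was named after its values were seen.

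GPR89A and GPR89B encode the Golgi pH regulator and are nearly identical copies, so the division of their reads is uncertain. They moved alike, from 26.7 ± 0.398 and 24.2 ± 0.541 CPM in Control (SD, n = 3) to 39.6 ± 14.4 and 38.0 ± 12.7 under CTCFL-OE and 67.0 ± 9.42 and 61.3 ± 5.82 under CTCFL-KD. In CTCFL-KD the log2 fold changes were 1.33 and 1.34 (adjusted p = 0.00177 and 0.00111). Of the remaining list, GPR107 was higher by 0.99 (SE 0.23, adjusted p = 0.00729) and GPR108 by 0.86 (adjusted p = 0.0188), which missed the fold threshold, while GPR137 at 0.58 and GPR180 at 0.05 missed the p threshold (adjusted p = 0.0939 and 0.909).

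GPR157, a Gq-coupled receptor of the primary cilium of neural progenitors, was at 42.0, 40.2 and 43.5 CPM in Control, 49.5, 57.3 and 78.7 under CTCFL-OE and 137, 139 and 165 under CTCFL-KD. The 3 groups did not overlap. Its log2 fold change from Control was 1.81 in CTCFL-KD (SE 0.20, adjusted p = 8.19e-05) and 0.56 in CTCFL-OE (SE 0.20, adjusted p = 0.176).

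Among adhesion receptors, ADGRF1 and ADGRG6 rose. ADGRF1 (GPR110), a receptor of the lipid amide synaptamide, was at 17.0, 17.6 and 15.9 CPM in Control, 21.4, 18.0 and 21.8 under CTCFL-OE and 64.8, 65.8 and 65.4 under CTCFL-KD. The CTCFL-KD libraries lay close together and far above the rest, with a log2 fold change of 1.96 (SE 0.16, adjusted p = 1.12e-05). ADGRF1 (46997708 to 47042350) and ADGRF4 (47685864 to 47722021) both lie on chromosome 6, and the first rose in CTCFL-KD while the second was called in CTCFL-OE.

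ADGRG6 (GPR126), which binds collagen IV and laminin and drives myelination by Schwann cells, was at 17.4, 17.3 and 17.2 CPM in Control, 21.3, 23.3 and 32.8 under CTCFL-OE and 27.1, 74.9 and 75.9 under CTCFL-KD. CTCFL-KD replicate 1 was well below the other two of its group and overlapped with CTCFL-OE. The log2 fold change against Control was 1.78 (SE 0.34, adjusted p = 0.00236). Against CTCFL-OE it was 1.21 (SE 0.34, adjusted p = 0.0223), a call lost without CTCFL-KD replicate 2 or 3 (adjusted p = 0.0703 and 0.0635) or CTCFL-OE replicate 1 or 2 (adjusted p = 0.0865 and 0.0856).

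GPRC5B, a class C relative of GPRC5A, moved the other way from it, at 29.4, 29.6 and 34.3 CPM in Control, 33.7, 32.2 and 42.8 under CTCFL-OE and 77.4, 98.3 and 95.7 under CTCFL-KD. The CTCFL-KD libraries stood above the rest, with a log2 fold change of 1.54 (SE 0.18, adjusted p = 0.000123). GPRC5B shares 26.7% of its exon length with IQCK on the opposite strand. GPRC5C was higher by 0.90 in CTCFL-KD (adjusted p = 0.0336) and GPRC5D lower by −1.03 (adjusted p = 0.0728), and neither was called. The GPRC5 family of 4 thus held 1 gene that rose and 1 that fell.

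The orphans GPR162 and GPR63 completed the named receptors that rose. GPR162 was at 16.2, 14.9 and 16.5 CPM in Control, 28.1, 26.1 and 31.6 under CTCFL-OE and 64.2, 37.5 and 34.1 under CTCFL-KD (log2 fold change 1.51, SE 0.24, adjusted p = 0.000748 in CTCFL-KD). GPR63 was at 0.751, 0.505 and 0.608 CPM in Control and 1.08, 2.08 and 2.63 in CTCFL-KD (log2 fold change 1.67, SE 0.44, adjusted p = 0.0124), and without Control replicate 2 its adjusted p was 0.0590. GPR27 was the last of the 17, at 5.21, 4.74 and 5.72 CPM in Control, 2.87, 6.11 and 7.01 under CTCFL-OE and 6.40, 14.1 and 13.1 under CTCFL-KD (log2 fold change 1.11, adjusted p = 0.0277), and was named after its values were seen. Its call was lost without any 1 Control library or CTCFL-KD replicate 2 or 3 (adjusted p between 0.0652 and 0.0962). GPR27 shares 11.3% of its exon length with EIF4E3.

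Among the 17 receptors that rose, CTCFL-KD replicate 1 was the lowest of its group for 12 and the highest for 5, which were GPR143, GPR162, GPR83, GPR89A and GPR89B. The 17 include GPR26 and GPR83, which passed the count filter in CTCFL-KD libraries alone. With the length trend removed from each library, 16 of the 17 were still called in CTCFL-KD against Control, and GPR27 was not (adjusted p = 0.0544). Without CTCFL-KD replicate 1, 26 receptor genes were called in CTCFL-KD against Control, and 25 were called with the trend removed.

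CTCFL-KD and CTCFL-OE were also compared directly. Of the 57 tested receptor genes, 21 were called, 15 higher and 6 lower in CTCFL-KD. Without the same 3 genes these were 19 of 54, with 13 higher and 6 lower, or 35.2%. The share of 36.8% stands beside 17.0% of all tested genes, of which 10.6% were higher and 6.42% lower.

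Called here and in neither comparison with Control were ADGRL3, described above, and ADGRE2. ADGRE2 (EMR2), a myeloid adhesion receptor that binds chondroitin sulfate, was at 5.56, 7.03 and 6.18 CPM in Control, 5.2, 8.36 and 8.66 under CTCFL-OE and 1.71, 4.34 and 4.71 under CTCFL-KD. CTCFL-KD was lower than CTCFL-OE by −1.01 (SE 0.33, adjusted p = 0.0448). The call was lost without CTCFL-KD replicate 1 (log2 fold change −0.70), CTCFL-KD replicate 2, CTCFL-OE replicate 2 or 3, or any Control library, with adjusted p values between 0.0401 and 0.129. ADGRE2 shares 15.7% of its exon length with ZNF333 on the opposite strand.

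The proteins that the receptors act through or are bound by were read from lists of 103 genes, of which 71 were tested. In CTCFL-OE none rose and 2 fell by edgeR, beside 1.37% and 0.702% of all tested genes, although 7 were higher at an unadjusted p under 0.05 and DESeq2 called GNB3 higher. In CTCFL-KD 17 rose and 11 fell, where 15.3% of all tested genes rose and 7.94% fell. Against CTCFL-OE 14 were higher and 8 lower in CTCFL-KD, beside 10.6% and 6.42% of all tested genes. TENM4, RGS7 and RGS16, which are among the genes counted as higher in CTCFL-KD, passed the count filter in CTCFL-KD libraries alone and are described with no adjusted p.

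Transglutaminase 2 (TGM2), an enzyme of the extracellular matrix that binds ADGRG1, fell in both treated groups. It was at 514, 507 and 534 CPM in Control, 143, 87.2 and 77.7 under CTCFL-OE and 12.8, 15.3 and 18.5 under CTCFL-KD. The 3 groups stood far apart. The log2 fold change was −2.34 in CTCFL-OE (SE 0.25, adjusted p = 0.0035) and −5.06 in CTCFL-KD (SE 0.29, adjusted p = 2.07e-06), and CTCFL-KD was lower than CTCFL-OE by −2.72 (SE 0.26, adjusted p = 5.63e-05). ADGRG1 itself did not pass the test in either group.

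Of the 15 tested ligands and partners of adhesion receptors, 6 rose and 2 fell in CTCFL-KD, beside the 15.3% and 7.94% of all tested genes. The 6 include TENM4, which passed the count filter in CTCFL-KD libraries alone. TENM4, a teneurin that latrophilins bind, had at most 1 read in each Control and CTCFL-OE library and 4.15, 7.67 and 5.64 CPM in CTCFL-KD. Its ratio of summed counts to Control was 394, with an exact 95% interval of 70.2 to 15600. FLRT3, another latrophilin ligand, named after its values were seen, was at 4.81, 4.08 and 5.12 CPM in Control, 3.69, 5.07 and 8.17 under CTCFL-OE and 12.0, 20.3 and 24.1 under CTCFL-KD (log2 fold change 2.02, SE 0.32, adjusted p = 0.000808 in CTCFL-KD). Of the latrophilins themselves, ADGRL1 at 0.61, ADGRL2 at 0.01 and ADGRL3 at 0.61 were not called in CTCFL-KD (adjusted p = 0.0152, 0.975 and 0.237).

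CELSR1, CELSR2 and CELSR3 are adhesion receptors of planar cell polarity whose symbols the rule leaves out. CELSR1 was at 107, 114 and 115 CPM in Control, 115, 170 and 179 under CTCFL-OE and 247, 440 and 410 under CTCFL-KD, a log2 fold change of 1.71 in CTCFL-KD (SE 0.25, adjusted p = 0.000517). CELSR3 rose by 1.65 (SE 0.24, adjusted p = 0.000512), from 6.82 ± 0.481 to 21.3 ± 5.47 CPM. CELSR2, at 245 ± 10.7 CPM in Control and 414 ± 93.1 in CTCFL-KD, was not called (log2 fold change 0.76, SE 0.23, adjusted p = 0.0232).

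All 3 tested genes for ligands of GPR receptors, or for enzymes that act on ligands, rose in CTCFL-KD, beside 15.3% of all tested genes, and the other 3 of the 6 listed did not pass the count filter. PCSK1N, the precursor of the GPR83 ligand PEN, was at 7.26, 5.48 and 6.89 CPM in Control and 72.4, 16.4 and 14.8 in CTCFL-KD (log2 fold change 2.39, SE 0.56, adjusted p = 0.00679). HSD3B7 inactivates the oxysterol ligand of GPR183, a receptor without a count in any library. HSD3B7 was at 2.20, 2.56 and 2.43 CPM in Control and 20.0, 5.53 and 6.35 in CTCFL-KD (log2 fold change 2.12, SE 0.44, adjusted p = 0.00347). In both genes CTCFL-KD replicate 1, in which short genes stood higher, was far above the other two of its group. Without that library, PCSK1N was higher by 1.26 (SE 0.25, adjusted p = 0.00235) and HSD3B7 by 1.31 (SE 0.18, adjusted p = 0.00021). With the length trend removed the values were 1.99 and 1.86 (adjusted p = 0.00286 and 0.00108). PSAP, which encodes prosaposin, rose by 1.25 (SE 0.26, adjusted p = 0.00386), from 1030 ± 23.3 to 2450 ± 148 CPM.

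The G protein subunits are read against the same shares of all tested genes, 15.3% higher and 7.94% lower in CTCFL-KD. Of 12 tested G alpha genes, 3 fell and none rose in CTCFL-KD by edgeR, although 2 were higher at an unadjusted p under 0.05 and 0 by DESeq2. The called genes were led by the olfactory-type stimulatory subunit GNAL, which was at 8.06, 10.1 and 10.8 CPM in Control, 8.57, 8.99 and 8.54 under CTCFL-OE and 2.44, 2.32 and 2.19 under CTCFL-KD (log2 fold change −2.06, SE 0.20, adjusted p = 2.95e-05). The inhibitory subunit GNAO1 fell by 1.11 (SE 0.34, adjusted p = 0.024), a call lost without any 1 Control library or CTCFL-KD replicate 2 (adjusted p between 0.0504 and 0.0939). Of 11 tested G beta and gamma genes, 5 fell and 1 rose, led by GNG12, at 253 ± 18.2 CPM in Control, 165 ± 55.7 under CTCFL-OE and 65.2 ± 19.1 under CTCFL-KD (log2 fold change −1.95, SE 0.28, adjusted p = 0.000445), and GNB4 (log2 fold change −1.5, SE 0.20, adjusted p = 0.00024). GNB3 was highest in CTCFL-OE, at 2.53 ± 0.891 CPM against 1.11 ± 0.0953 in Control and 0.607 ± 0.314 in CTCFL-KD (SD, n = 3), and was called by edgeR between CTCFL-KD and CTCFL-OE alone (log2 fold change −1.97, SE 0.40, adjusted p = 0.00464). GNG2 was the partner gene besides TGM2 that fell in CTCFL-OE, by 1.14 (SE 0.24, adjusted p = 0.055), a call lost without any 1 Control library or CTCFL-OE replicate 2 or 3 (adjusted p between 0.199 and 0.263), and it also fell in CTCFL-KD, by 1.17 (SE 0.25, adjusted p = 0.00409), which became −0.98 on the log2 scale without CTCFL-KD replicate 1, within the fold threshold.

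Of 13 tested RGS genes, which switch off G alpha, 4 rose and 1 fell in CTCFL-KD, beside 15.3% and 7.94% of all tested genes. The 4 include RGS7 and RGS16, which passed the count filter in CTCFL-KD libraries alone. RGS20, the RGS gene that fell, named after its values were seen, was at 32.0, 33.3 and 33.6 CPM in Control, 32.0, 29.3 and 31.0 under CTCFL-OE and 9.20, 4.93 and 7.12 under CTCFL-KD (log2 fold change −2.23, SE 0.22, adjusted p = 3.68e-05). RGS7 was at 0.351, 0.155 and 0.405 CPM in Control, 0.410, 0.209 and 0.492 under CTCFL-OE and 1.53, 1.96 and 1.53 under CTCFL-KD, where every library lay above all others. RGS16 went from at most 3 reads in each Control library to between 0.992 and 1.70 CPM, a ratio of summed counts of 24.1 with an exact 95% interval of 8.99 to 91.0. The cyclase gene ADCY5 rose from 1.96 ± 0.227 CPM in Control and 2.91 ± 0.627 in CTCFL-OE to 11.8 ± 1.68 in CTCFL-KD (log2 fold change 2.58, SE 0.23, adjusted p = 2.14e-05), the only 1 of 6 tested adenylyl cyclases. None of the 8 tested receptor kinases and arrestins was called in any comparison by edgeR or DESeq2. At an unadjusted p under 0.05, 0 of them differed in CTCFL-OE, 3 in CTCFL-KD and 4 between CTCFL-KD and CTCFL-OE, all within the fold threshold.

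**Figure D5:**
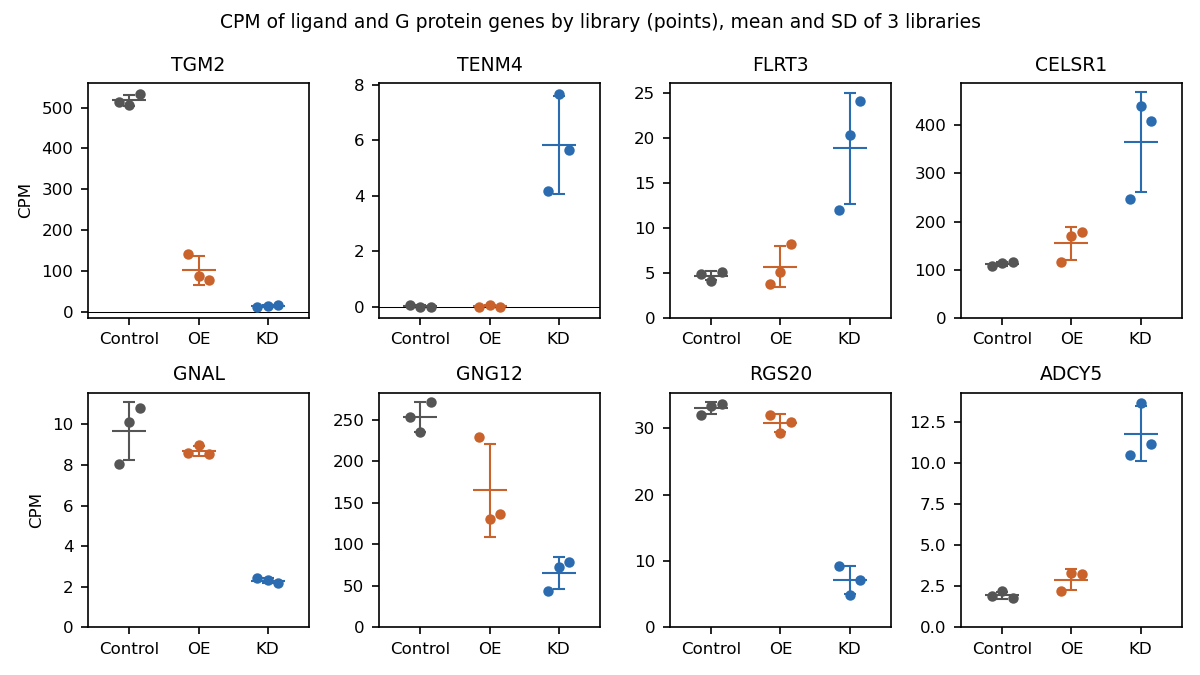
CPM of 8 genes for receptor ligands, related receptors and G protein signalling in each library; points are libraries, dashes means and bars SDs of 3 libraries, on linear axes of their own. TGM2 steps down from 507 to 534 CPM in Control to 77.7 to 143 under CTCFL-OE and 12.8 to 18.5 under CTCFL-KD, and TENM4 is detected at more than 1 read a library in CTCFL-KD alone.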

How the data were processed

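RNA from Control, CTCFL-OE and CTCFL-KD cells was sequenced from poly(A) libraries made with a stranded kit. According to the study's methods, the authors used Trimmomatic for trimming, STAR for alignment to GRCh38 and featureCounts for counting. The submitters' processing notes name kallisto in place of STAR. The deposited values are raw counts per gene. The 9 library files held the same values as the deposited matrix, and 0 columns were left unmapped. Annotation release, strandedness of the counting and handling of multiply aligned reads are not given in the sources used here, so counts of near-identical copies and of genes with overlapping exons are uncertain.

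Gene symbols, positions and exon lengths came from GENCODE 44, which named 60419 of the 60660 identifiers. Counts were filtered with filterByExpr, scaled by TMM and fitted with edgeR 4.0.16 (glmQLFit with robust estimation) in R 4.3.3, with all 9 libraries and condition as the only factor. Levels are CPM on the TMM-scaled library size. The standard error (SE) is the size of the log2 fold change over the root of its F value. Where no library of a group exceeded 3 counts, a ratio of summed counts with its exact 95% Clopper-Pearson interval is given in the text in place of the fitted fold change, and a group at 0 was set to 3 counts over the group. Intervals cover counting error only, since reads carried no molecular identifiers. A gene at 0 could hold up to 3 counts, which is between 0.117 and 0.271 CPM in a library.

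Named genes were GPR141, every receptor called in CTCFL-OE, up to 15 called receptors in each direction in CTCFL-KD, receptors called between CTCFL-KD and CTCFL-OE alone, the 8 highest per kilobase in Control, and per partner list the 2 called genes with the largest change in each comparison. The values of 1 named receptor are not reported here, and it stays in the counts. The receptors, the lists and the tests were chosen with earlier results of these data known. Fits were tested on simulated data. The 3 same-numbered pairs of Control and CTCFL-KD libraries deviated together (correlations of 0.373, 0.216 and 0.261 over 12000 genes), although the study describes CTCFL-KD as a separate experiment. A fit blocked on replicate number was therefore also run, and the named genes whose calls it ended are listed below. Calls that it added are not named. Python 3.11.15, pandas 2.3.3, numpy 2.4.6, scipy 1.17.1 and matplotlib 3.10.9 were used for tables and figures.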

Additional observations from a re-analysis of the deposited data

How the results depend on the processing

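The count of receptor genes called in CTCFL-OE, 2 as reported, was 1 with at least 10 counts in every library or with glmTreat against 2-fold, and 4 with edgeR on the 2 groups compared, with no low-count filter, with the exon length trend removed, or with the trend removed and the replicate block. It was 1 without any 1 Control library or CTCFL-OE replicate 2 or 3, and 4 without CTCFL-KD replicate 1. In CTCFL-KD, 24 were called, 14 with at least 10 counts in every library, 11 with glmTreat and between 21 and 26 without any 1 library. Between CTCFL-KD and CTCFL-OE, 21 were called, 11 with at least 10 counts in every library, 8 with glmTreat and between 16 and 22 without any 1 library. The stricter filter tests fewer genes, and glmTreat asks for a change beyond 2-fold. The partner genes called were 2 in CTCFL-OE, 4 with no low-count filter, 6 without CTCFL-OE replicate 1 and 1 without any 1 Control library or CTCFL-OE replicate 2 or 3. The other alternatives, among them DESeq2 1.42.0 and RLE and upper-quartile scaling, stayed within 1.5 times of each count.

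With the replicate block, 3, 23 and 20 receptor genes were called in CTCFL-OE, CTCFL-KD and CTCFL-KD against CTCFL-OE. Of the named genes it ended the calls of ADGRA2 in CTCFL-KD and against CTCFL-OE, ADGRG2 in CTCFL-KD and ADGRF4 between CTCFL-KD and CTCFL-OE. Same-numbered Control and CTCFL-OE libraries deviated together in 1 of 3 pairs (correlations of −0.0512, 0.221 and −0.0532). Over the named receptor and alternative pairs, 747 of 834 kept their call, 87 lost it and 0 changed direction. The tally includes GPR141, GPR26 and GPR83, which passed the count filter only through the group where they are high and lost no call. It leaves out fits that set no adjusted p, such as DESeq2 for GPR141 in CTCFL-OE. Genes below about 20 reads a library, such as GPR141, GPR26 and GPR83, are limited by counting error.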

Other observations

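Beside the protein-coding receptors, 26 family symbols in the matrix are not protein coding. Of these, ADGRF2, a transcribed unitary pseudogene next to ADGRF4, was at 0.952, 0.933 and 1.52 CPM in Control, 0.547, 0.575 and 0.799 under CTCFL-OE and 1.98, 4.16 and 5.15 under CTCFL-KD. The 3 groups did not overlap. Its log2 fold change from Control was 1.76 in CTCFL-KD (SE 0.36, adjusted p = 0.00336) and −0.83 in CTCFL-OE (SE 0.41, adjusted p = 0.324), and CTCFL-KD was higher than CTCFL-OE by 2.58 (SE 0.39, adjusted p = 0.000817, edgeR). ADGRF2 and ADGRF4 lie on the same strand and share 2.30% of the exon length of ADGRF4, and ADGRF4 was one of the receptors that fell in CTCFL-OE.

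Among receptors that did not pass the count filter of edgeR, the brain adhesion receptor ADGRB3 had a ratio of summed counts of 19.8 in CTCFL-KD against Control (exact 95% interval 3.02 to 839), with 0, 0.416 and 0.383 CPM in the 3 CTCFL-KD libraries and at most 1 read in a Control library. GPR85, a receptor of the SREB family like GPR27, was at 0.351, 0.311 and 0.405 CPM in Control, 0.365, 0.418 and 0.430 under CTCFL-OE and 0.541, 1.43 and 1.48 under CTCFL-KD. DESeq2, run without that filter, called GPR85 in CTCFL-KD against Control (log2 fold change 1.70, SE 0.56, adjusted p = 0.0107) and against CTCFL-OE (1.52, SE 0.56, adjusted p = 0.0323), and did not call ADGRB3 against Control (adjusted p = 0.105). Both were chosen after their values were seen.

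Endothelial markers summed to 8.36 to 9.40 CPM in Control, 11.3 to 12.5 under CTCFL-OE and 11.5 to 20.7 under CTCFL-KD. Fibroblast markers summed to 26.8 to 32.8, 24.1 to 43.5 and 35.7 to 40.9 CPM in the same order, and neural markers to 9.87 to 11.2, 5.93 to 7.42 and 7.97 to 10.8 CPM. Within the lists, means moved apart between Control and CTCFL-KD. KDR rose from 1.77 to 11.7 CPM while PECAM1 fell from 1.81 to 0.297 CPM. COL1A2 rose from 0 to 13.9 CPM while COL1A1 fell from 29.8 to 23.3 CPM. The part of these markers in the receptor values was not tested.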
